A study of Mus musculus with 108 samples.

Results

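6 genes that handle zinc were followed in single mouse oocytes with and without Exosc10, a 3′ to 5′ exoribonuclease of the nuclear RNA exosome that degrades and trims many RNAs. The genes were the metallothioneins Mt1 and Mt2, the metal-sensing transcription factor gene Mtf1, the zinc exporter gene Slc30a1 and the zinc importer genes Slc39a6 and Slc39a10. They are 6 of the 55573 gene identifiers in the gene count files, and all 6 were matched and passed the filter on low counts in both library types. They were picked by name with the differences between knockout and control in these libraries already known, so those differences are described here without a test. Changes between stages were tested.

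2 kinds of library, each from 1 oocyte, are used here: polyA libraries, built from RNA captured on oligo-dT beads, and RiboMinus libraries, built with a kit that does not select for a poly(A) tail. Oocytes were fully grown germinal vesicle oocytes (GV), GV oocytes kept for 3 hours in M2 medium (GV3h, polyA only) or eggs at metaphase II collected from the oviduct (MII). Each came from a female with an oocyte-specific Exosc10 knockout (cKO) or from a control female. In polyA, the GV stage had 15 oocytes from cKO and 7 from control females, the GV3h stage 11 against 8 and the MII stage 15 against 8, from 2 or 3 females a group. The RiboMinus groups held 7 cKO and 8 control oocytes at GV, 4 cKO oocytes at MII from 2 females each, and 3 control oocytes at MII that all came from 1 female. The driver of the Cre recombinase, the alleles that the controls carry, the strain and the age are not given in the sources used here. The female was taken as the replicate.

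Metallothioneins are small cysteine-rich proteins that bind zinc and copper and buffer the free metal. When free zinc rises, MTF1 enters the nucleus, binds metal response elements and switches on Mt1, Mt2 and Slc30a1, whose product ZnT1 carries zinc out of the cell. ZIP6 and ZIP10, made from Slc39a6 and Slc39a10, bring zinc in, and they are known for the zinc that a mouse oocyte takes up during meiotic maturation before it releases zinc at fertilization.

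In GRCm38 with the GENCODE M21 annotation, Mt2 (ENSMUSG00000031762) lies at chr8:94172664-94173568 and Mt1 (ENSMUSG00000031765) at chr8:94179082-94180327, both on the plus strand and 5513 bases apart. Mtf1 (ENSMUSG00000028890) lies at chr4:124802104-124849800 and Slc30a1 (ENSMUSG00000037434) at chr1:191906767-191913247, both on the plus strand. Slc39a10 (ENSMUSG00000025986) lies at chr1:46807544-46892852 on the minus strand. No other annotated gene overlaps Mt1. The others overlap at least 1 gene each, on the opposite strand for Mt2 (Gm45774), Slc30a1 (1700034H15Rik), Mtf1 (1110065P20Rik) and Slc39a6 (Elp2), and whether reads were counted by strand is not given in the sources used here. Counts per gene also do not show where in a gene the reads fall. As background, the polyadenylation region of mouse Mt1 is a common part of transgene constructs, some Cre constructs included. Reads from chromosomal Mt1 and from any construct that carried part of it cannot be told apart in these counts, and this was not tested.

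The start regions of Mt1 and Mt2 are printed because both neighbours hold metal response element cores while their levels in these oocytes were far apart. Each run holds 250 bases before and 27 bases after the RefSeq transcript start in GRCm38.p6, on the plus strand, for Mt1 at chr8:94178839-94179115 and for Mt2 at chr8:94172368-94172644. Capitals mark matches to TGCACNC or TGCGCNC on either strand.
Mt1: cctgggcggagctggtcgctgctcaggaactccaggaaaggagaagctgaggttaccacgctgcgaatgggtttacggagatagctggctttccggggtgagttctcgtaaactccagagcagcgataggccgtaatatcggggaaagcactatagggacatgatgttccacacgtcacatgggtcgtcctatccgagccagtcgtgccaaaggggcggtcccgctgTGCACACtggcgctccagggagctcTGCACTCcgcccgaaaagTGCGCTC
Mt2: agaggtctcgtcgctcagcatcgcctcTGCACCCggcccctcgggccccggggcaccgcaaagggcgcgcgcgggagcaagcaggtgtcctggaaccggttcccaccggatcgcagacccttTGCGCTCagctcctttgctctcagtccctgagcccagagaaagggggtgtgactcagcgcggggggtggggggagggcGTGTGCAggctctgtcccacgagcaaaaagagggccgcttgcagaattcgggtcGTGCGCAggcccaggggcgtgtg
The Mt1 window held 3 matches and the Mt2 window 4, with no overlap between them. Matches outside the windows were not counted. Annotated starts of Mt1 differ, for example 94178883 and 94179082, so its count depends on the start used. Of 32851 RefSeq windows of the same length, 23.8% held at least 1 match, 1.7% at least 3 and 0.396% at least 4. RefSeq start regions were found for 5 of the 6 genes. The Slc30a1 window held 1 match, and the letters were not found in the Mtf1 window or in either of the Slc39a10 windows. A match describes the letters and does not show that MTF1 binds there.

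Libraries held 4638718 to 8735914 reads assigned to genes in polyA and 12319658 to 62675760 in RiboMinus. Levels are CPM, the counts of a gene scaled to a fixed library size after TMM adjustment, and they are relative to the rest of the RNA: spike-in rows are not used here, so amounts per oocyte were not analysed. Exosc10 was low in every cKO oocyte (0 to 4.47 CPM in polyA and 0.469 to 8.15 in RiboMinus) and higher in every control oocyte (42.6 to 164 and 83.8 to 161 CPM). Summed over 12 oocyte markers, the median oocyte held 23400 to 28900 CPM in the polyA groups and 10100 to 14000 in the RiboMinus groups. Single oocyte markers differed by genotype: in polyA MII eggs Zp2 (2.03), Zp3 (1.56) and Nlrp5 (1.21) were called higher in the cKO, and at RiboMinus MII Ooep (673 against 2470 CPM) and Nlrp5 (334 against 1040 CPM) were called lower. The 15 granulosa and cumulus markers together held 69.3 to 173 CPM per polyA oocyte and 83.6 to 203 per RiboMinus oocyte, with overlapping ranges between genotypes in each polyA group. Foxl2, Fshr, Hsd17b1 and Inha were at 0 in all control MII polyA libraries. Cyp19a1 made up much of the sum there, at 4858 reads (98 CPM) against a median sum of 132 CPM. In controls Cyp19a1 was called higher at MII than at GV (1.51 ± 0.33, edgeR adjusted p = 0.00144). In polyA MII eggs Inhba was called lower in the cKO, at 1 read against 20. At RiboMinus MII the granulosa sum was lower in the cKO, at 83.6 to 122 CPM against 152 to 168. Single markers went both ways there: Nr5a2 was lower (61.3 and 61.9 CPM in the cKO females, 130 in the control female), while Star (559 reads against 3) and Cyp11a1 (329 against 3), genes of steroid synthesis, were called higher. The part of these in the results at that stage was not tested.

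1 control female stood apart for Mt1. The 4 MII polyA eggs of female V853 held 97 to 122 Mt1 reads (15.3 to 20.9 CPM), while the 4 control eggs of females V836 and V896 held 0 or 1 read. Of 14107 genes, Mt1 differed most upward between V853 and the mean of the other control MII females, by 4.25 on the log2(CPM + 1) scale. The top genes of the other females differed as much or more, Pnpla3 by 4.65 in V836 and 4931408C20Rik by 5.2 in V896. Each of these is the largest of 14107 differences, so they do not show whether the Mt1 gap was unusual. The V853 eggs also held 45.5 to 72.2 CPM of Exosc10, against 108 to 164 in the other control MII eggs and 42.6 to 56.5 in the GV controls and the 2 GV3h oocytes of female V951. Their granulosa marker sum, 124 to 136 CPM, lay inside the range of the other control MII eggs (103 to 173 CPM). What part any of these had in the Mt1 level was not tested, and Mt1 results that include V853 are given below with and without that female. Without V853 the MII genotype differences of the other members were 4.44 for Mt2 (5.24 with it), 0.08 for Mtf1, -0.16 for Slc39a6 and 0.03 for Slc39a10. The control change of Mt2 from GV to MII was 0.78 in place of -0.02, not called either way. It compares 1 read with 1 read, so neither value carries information. Slc30a1 gave no value in that fit.

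Mt1 was nearly absent from control oocytes and abundant in cKO oocytes in both library types. In polyA GV controls it held 0.291 to 1.16 CPM (median 0.887, 2 to 8 reads), and in GV cKO oocytes 132 to 345 CPM (median 196, 910 to 2562 reads). At GV3h the controls held 0 to 1.42 CPM (median 0.2) and the cKO oocytes 161 to 637 CPM (median 287). At MII the cKO eggs held 21.7 to 46.5 CPM (median 34.7), every egg above the highest control egg, a V853 egg at 20.9 CPM. The genotype groups did not overlap in any of these 3 pairs. Here and below, the share of all genes whose groups do not overlap was not counted. A lack of overlap therefore only describes the gene named, and oocytes of a female are not replicates.

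RiboMinus libraries, which do not depend on a tail, gave the same order of the genotypes for Mt1. GV controls held 0.0615 to 0.781 CPM (median 0.272) and GV cKO oocytes 73.8 to 166 CPM (median 103). At MII the 3 control eggs held 0, 0.155 and 0.449 CPM, and the 4 cKO eggs 48.4 and 35.8 CPM (female V1166) and 121 and 86.6 CPM (female V1167). There was again no overlap, with 2 cKO females and 1 control female at MII.

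Fitted over females, Mt1 was higher in the cKO by 8.05 ± 1.38 (log2 ± SE) in polyA GV oocytes, by 9.37 ± 1.25 after culture (GV3h) and by 2.30 ± 0.85 in MII eggs. Without V853 the MII difference was 9.46. The control females then left, V836 and V896, held 1 and 0 Mt1 reads, so this size is not a bound. In RiboMinus the difference was 8.59 ± 0.53 at GV and 8.43 ± 0.75 at MII, the latter against 1 control female that was assumed to vary like the others. Over all genes tested, edgeR's quasi-likelihood test called 3.47% higher and 3.91% lower in the polyA GV cKO, 12.5% and 12.7% after culture (GV3h), 11.9% and 6.99% in MII eggs, 0.0275% and 0.00393% at RiboMinus GV, and 3.61% and 3.69% at RiboMinus MII. These shares are background, since Mt1 was chosen for this difference. They are not fixed, as they changed with the fit and with 1 female left out.

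**Figure D1:**
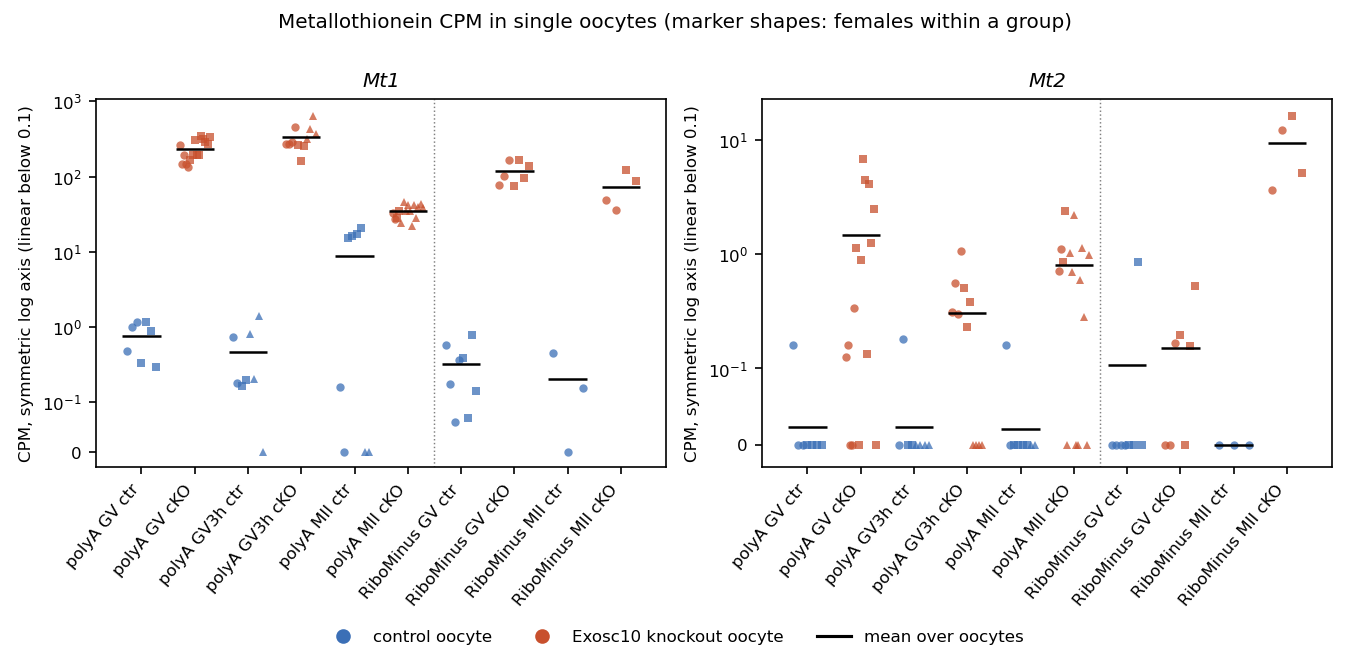
CPM of Mt1 (left) and Mt2 (right) in each oocyte on a symmetric log axis that is linear below 0.1, by library type, stage and genotype; points are oocytes, shapes are females within a group and bars are means over oocytes. Mt1 lies above 21 CPM in every knockout oocyte, and 4 control MII eggs of 1 female lie at 15.3 to 20.9 CPM; Mt2 passes 10 CPM in 2 RiboMinus MII knockout eggs.

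**Figure D2:**
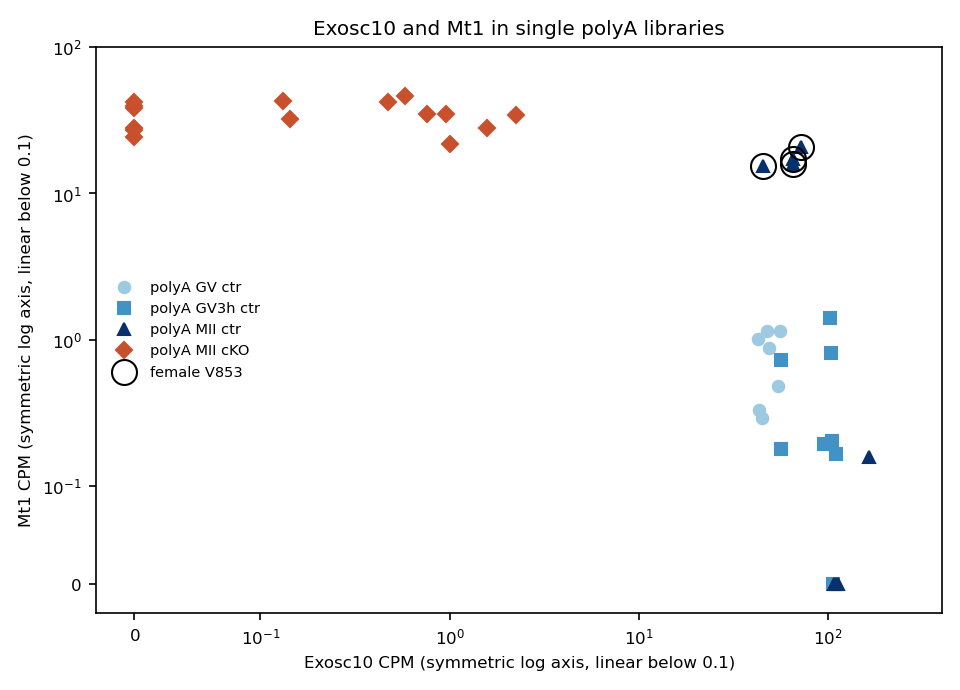
Mt1 against Exosc10 in single polyA libraries of the 3 control groups and the MII knockout group, both in CPM on symmetric log axes that are linear below 0.1. The 4 circled eggs of control female V853 hold 45.5 to 72.2 CPM of Exosc10 and 15.3 to 20.9 CPM of Mt1, apart from the other control eggs.

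Across stages, Mt1 fell in cKO polyA libraries from GV to MII, by 2.64 ± 0.88 on the log2 scale (edgeR, adjusted p = 0.0221), with all 3 MII females (29.8 to 40.2 CPM) below both GV females (171 and 249 CPM). In this transition 18.1% of genes were called higher and 26.6% lower. V853 shares the fit and widened its error: without that female, an alternative chosen after seeing the data, the SE was 0.27 and the edgeR adjusted p 2.35e-06. DESeq2 on the same sums did not call the fall (adjusted p = 0.152), and with V841, V842, V888 or V897 left out edgeR's adjusted p was 0.0506 to 0.0717.

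In control polyA libraries the fitted change of Mt1 from GV to MII was 3.10 ± 1.22 (edgeR, adjusted p = 0.0513), against backgrounds of 16.8% called higher and 25.7% lower. It rested on V853: without that female the change was -4.05 with an edgeR adjusted p of 0.00568. The MII females then left, V836 and V896, held 1 and 0 Mt1 reads, so the size of this fall is not a bound. With voom over single oocytes, V853 included, the control change was 0.36 (adjusted p = 0.851). In RiboMinus libraries Mt1 did not pass the test from GV to MII in the cKO (-0.78 ± 0.37, edgeR adjusted p = 0.277) or in controls (-0.61 ± 0.69, edgeR adjusted p = 0.696). The RiboMinus backgrounds were 0.61% higher and 1.71% lower in the cKO and 0.00787% and 0% in controls. Without the MII cKO female V1167 the cKO change was -1.53 (edgeR, adjusted p = 0.0281).

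Mt2, the neighbour that usually moves with Mt1 when metal is added, stayed near the limit of detection in most oocytes. In polyA controls it had 1 read in all at each of GV, GV3h and MII. The cKO oocytes held 177 reads at GV, 26 at GV3h and 77 at MII, with 4 oocytes at 0 in each group. At GV nearly all of these reads came from V888 (0 to 59 reads per oocyte), while the 5 oocytes of V857 had 0 to 3. Pooled over oocytes, the ratio of cKO to control CPM was 69.6 at GV (95% exact counting interval 12.3 to 2770), 12.6 at GV3h (2.07 to 517) and 38.4 at MII (6.69 to 1540).

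RiboMinus MII was the exception for Mt2. The 4 cKO eggs held 209, 245, 451 and 133 reads, or 3.63, 12.4, 16.4 and 5.14 CPM, and the 3 control eggs held none. This is at least 133-fold higher than the limit of 3 reads over the pooled control eggs. At RiboMinus GV, by contrast, cKO oocytes held 0 to 11 reads and controls 12 reads, all in 1 oocyte of V1133, a pooled ratio of 1.60 (0.753 to 3.57). The cKO change from GV to MII was 5.66 ± 1.23 (edgeR, adjusted p = 0.0532), just outside the threshold. The ratio of pooled CPM was 48.4 (31.5 to 78.6). DESeq2 called the change (adjusted p = 9.15e-06). In all, 4 of 11 alternatives called it, DESeq2 and edgeR with each oocyte as a replicate (adjusted p = 0.000794) among them. 1 of these 4 eggs, from V1166, also held 14.6 CPM of blood markers; the 2 eggs of V1167 held 16.4 and 5.14 CPM of Mt2 with 0 to 0.502 CPM of blood markers. Counting intervals cover counting error only, since amplified reads are not independent molecules.

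Per kilobase of annotated exon, the distance between the neighbours was large. Mt1 has 1246 exonic bases and Mt2 588. The union of annotated exons covers the whole span of Mt1, so its values per kb may be too low beside those of Mt2. In cKO GV oocytes Mt1 stood at 169 CPM per kb in polyA and Mt2 at 1.92, as means over females. In RiboMinus MII cKO eggs the means were 57.8 for Mt1 and 13.7 for Mt2.

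Mtf1, the gene of the metal sensor, was well expressed in every group. PolyA group medians ran from 274 CPM in GV3h controls to 404 in MII cKO eggs, with oocytes between 244 and 499 CPM. The fitted cKO minus control differences were 0.04 ± 0.16 at GV, 0.14 ± 0.13 at GV3h and 0.09 ± 0.13 at MII, and the ranges of females overlapped between neighbours throughout the order of the 6 polyA groups. In RiboMinus the order was wider, and no neighbours in it overlapped over females. GV controls held 225 to 348 CPM (median 262) and GV cKO oocytes 291 to 488 (median 391), a difference of 0.53 ± 0.21. At MII the 3 control eggs held 224 to 248 CPM, and the 4 cKO eggs 576, 479, 440 and 480 CPM, a difference of 0.98 ± 0.27. The MII genotype groups, 2 cKO females against 1 control female, did not overlap. No stage change of Mtf1 was called, with edgeR adjusted p of 0.144 to 1. The polyA cKO change from GV to MII (0.28) was called with each oocyte as a replicate (0.32, adjusted p = 5.36e-06) and with voom (0.25, adjusted p = 0.00958), and was -0.25 with library totals.

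Slc30a1, which encodes the exporter ZnT1 and is a textbook MTF1 target beside the metallothioneins, was scarce. It had 0 to 11 reads per polyA oocyte, and female means lay between 0.086 and 0.65 CPM, with overlap between neighbours in the order of groups. At GV3h the cKO females (0.273 to 0.322 CPM) did not overlap the controls (0.0872 to 0.177 CPM), a pooled ratio of 2.72 (1.04 to 9.01). The fitted genotype differences were -0.26 ± 0.89 at GV, 1.27 ± 0.85 at GV3h and 0.88 ± 0.79 at MII. RiboMinus libraries held more of it except in MII controls (0.183 CPM against 0.185 in polyA). They held 0.214 to 2.28 CPM in GV controls (median 0.87) and 1.31 to 2.98 in GV cKO oocytes (median 2.17), which overlapped. At MII the 3 control eggs held 0 to 0.263 CPM (9 reads in all), and the 4 cKO eggs 1.12 to 4.14 CPM (31 to 82 reads each). The MII groups, 2 cKO females against 1 control female, did not overlap. The fitted difference was 3.16 ± 0.97 with a pooled ratio of 10.0 (5.19 to 22.2). From GV to MII in RiboMinus controls Slc30a1 changed by -2.67 ± 0.95 (edgeR, adjusted p = 0.243; 0.0462 with only the groups compared and 0.0268 with each oocyte as a replicate), and in the cKO by -0.38 ± 0.65 (edgeR, adjusted p = 0.773).

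Slc39a6 (ENSMUSG00000024270, chr18:24579881-24603817, minus strand), which encodes ZIP6, was abundant and at similar levels in all groups. Its group medians were 319 to 412 CPM in polyA and 344 to 390 in RiboMinus, and oocytes ranged from 261 to 502 CPM. cKO minus control differences were -0.32 ± 0.19, -0.47 ± 0.16 and -0.18 ± 0.15 in polyA libraries of GV, then GV3h, then MII, and -0.03 ± 0.20 and -0.09 ± 0.25 at RiboMinus GV and MII. At GV3h the female means did not overlap (292 to 361 CPM in the cKO, 369 to 457 in controls), although oocytes did. None of the 6 stage changes was called, with edgeR adjusted p of 0.55 to 1. With library totals the control change from polyA GV to MII was -0.44 and called (adjusted p = 0.0478).

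Slc39a10, which encodes ZIP10, was the member that rose at MII. In polyA controls it went from 412 to 547 CPM at GV (median 456) to 696 to 1150 at MII (median 928), without overlap, a change of 1.03 ± 0.15 (edgeR, adjusted p = 4.38e-05). In the cKO it went from 199 to 589 CPM (median 419) to 746 to 1030 (median 880), also without overlap, a change of 1.27 ± 0.15 (edgeR, adjusted p = 6.35e-06). Both rises were called under all alternatives run (12 in controls and 13 in the cKO), V853 left out included, with fitted changes of 0.597 to 1.18 in controls and 0.748 to 1.43 in the cKO. The lowest values came with library totals in place of TMM, which also moved the median of all genes: -0.26 became -0.692 for controls, and -0.332 became -0.855 for the cKO.

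No rise of Slc39a10 passed the test in RiboMinus libraries. Controls held 675 to 977 CPM at GV and 530 to 645 at MII (-0.41 ± 0.31, edgeR adjusted p = 0.555), and cKO oocytes 414 to 974 and 701 to 1100 (0.43 ± 0.25, edgeR adjusted p = 0.358). The 2 library types came from different females and were not tested against each other. Set side by side, the polyA mean was below the RiboMinus mean at GV by 0.773 in controls and 0.679 in the cKO (log2), and above it at MII by 0.722 and 0.138.

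At GV3h, Slc39a10 was lower in the cKO. Oocytes held 206 to 457 CPM (median 297) against 464 to 578 (median 504) in controls, without overlap, a difference of -0.73 ± 0.13. The differences at polyA GV and MII were -0.30 ± 0.16 and -0.05 ± 0.13, and in RiboMinus -0.33 ± 0.25 at GV and 0.51 ± 0.31 at MII, all with overlapping ranges except RiboMinus MII (530 to 645 against 701 to 1100 CPM). That exception compares 1 control female with 2 cKO females.

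**Figure D3:**
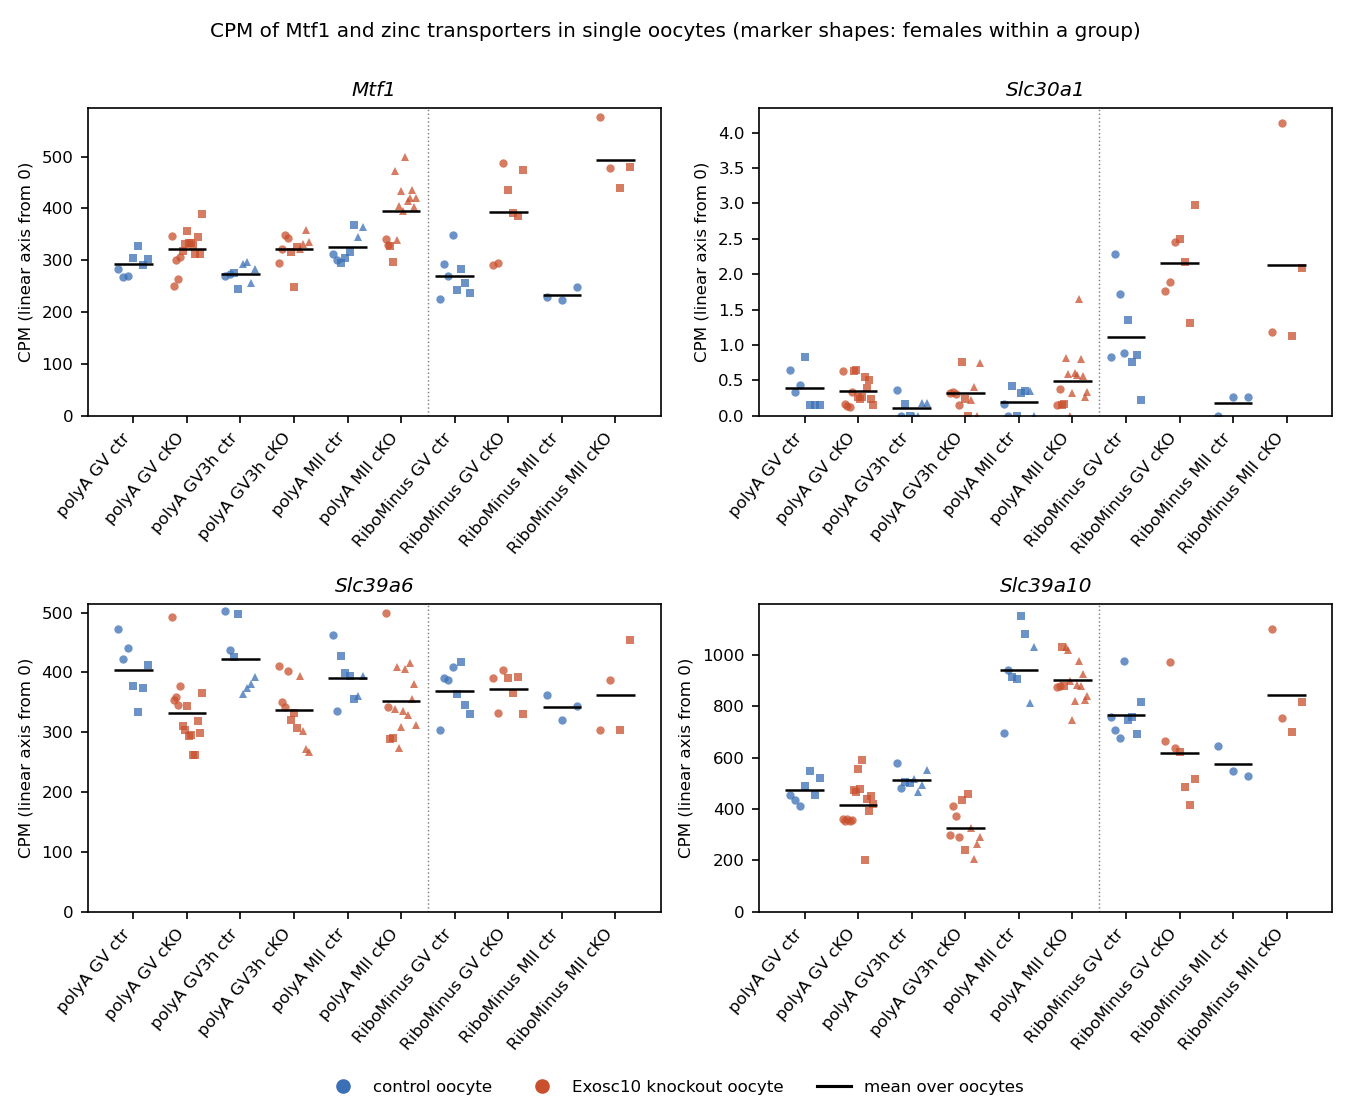
CPM of Mtf1, Slc30a1, Slc39a6 and Slc39a10 in each oocyte on linear axes from 0, by library type, stage and genotype; points are oocytes, shapes are females within a group and bars are means over oocytes. PolyA Slc39a10 lies at 696 to 1150 CPM in MII controls and 412 to 547 in GV controls, while Slc39a6 keeps to 261 to 502 CPM throughout.

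Per kilobase, as means over females, the importers and Mtf1 stood far above the exporter. In polyA GV controls Slc39a6 stood at 98 CPM per kb, Slc39a10 at 74.8, Mtf1 at 31.8 and Slc30a1 at 0.0721. In polyA MII controls Slc39a10 was the highest of these, at 158 against 101 for Slc39a6.

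No member was called after 3 hours in culture in either genotype, and none had an unadjusted p under 0.05. No gene at all was called by edgeR in this comparison (0% in each direction and genotype), with 425 genes in controls and 373 in the cKO at an unadjusted p under 0.05, and DESeq2 called 16 and 17. With each oocyte as a replicate edgeR called 28 higher and 17 lower in controls and 94 and 161 in the cKO, and with no filter 10 and 35, and 9 and 35. From GV to MII in polyA, 1 of 6 members was called higher in controls and none lower, with a median change of 0.11 against -0.26 over all genes. The median was 0.23 with Mt2, at 1 read in each group, left out. Without V853, Mt1 was called lower there (-4.05, edgeR adjusted p = 0.00568). In the cKO 1 was called higher and 1 lower, with a median of 0.14 against -0.33. With 16.8% higher and 25.7% lower over all genes in controls, and 18.1% and 26.6% in the cKO, these counts are near the background. In RiboMinus no member was called by edgeR in either genotype, with 1 at an unadjusted p under 0.05 in each (Slc30a1 in controls, Mt2 in the cKO), while DESeq2 called Mt2 in the cKO.

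**Figure D4:**
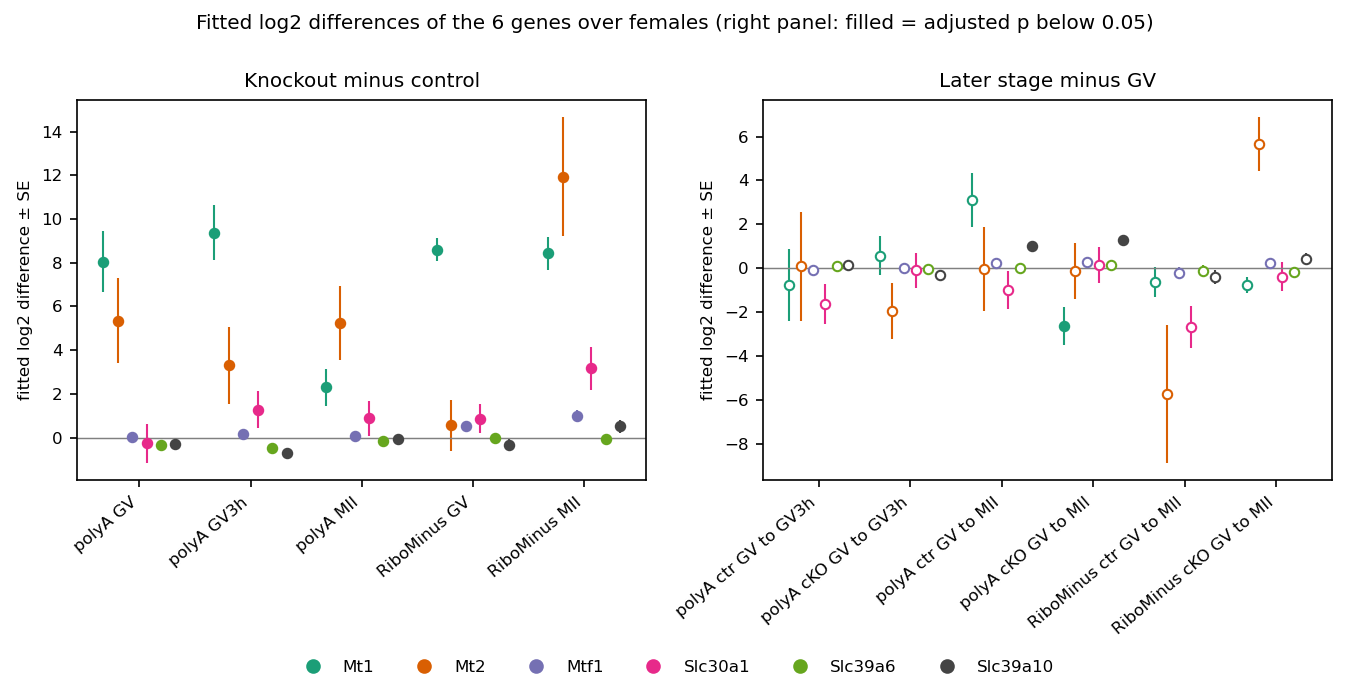
Fitted log2 differences with their SE for the 6 genes, knockout minus control (left, described without a test) and later stage minus GV (right, filled where the adjusted p was below 0.05), over females. Mt1 stands at 8.05 to 9.37 in the left panel except at polyA MII (2.30); on the right Slc39a10 (1.03 and 1.27) and Mt1 in the knockout (-2.64) are filled at polyA MII. Fitted Mt2 values rest on groups near 0 reads and are not bounds.

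The other zinc genes were a list of 23: Mt3, Mt4 and the remaining ZnT (Slc30a) and ZIP (Slc39a) transporters. In polyA 17 were tested and in RiboMinus 21. This list and those below were chosen with earlier results of these data known, so their calls are no independent evidence. Every RiboMinus MII call between genotypes, in any list, compares 2 cKO females with 1 control female that was assumed to vary like the others. In the cKO 3 of 17 were called higher and none lower at polyA GV, 5 higher and 1 lower at GV3h, and 4 higher and none lower at MII. Fitted on the 2 polyA GV groups alone, edgeR called none of the 17, and over all genes it called 1 higher and 0 lower in place of 667 and 753, so every polyA GV call below rests on the spread shared with the other groups. At RiboMinus GV none of 21 was called by edgeR, with 6 at an unadjusted p under 0.05 and 3 called higher by DESeq2, and at RiboMinus MII 5 were higher and none lower. Over all genes 3.47% were higher and 3.91% lower in the polyA GV comparison, 12.5% and 12.7% after culture, 11.9% and 6.99% in MII eggs, and 3.61% and 3.69% in RiboMinus MII eggs. The list's median difference was 0.74 at polyA GV against 0.08 over all genes, 0.58 against 0.07 at GV3h, 0.48 against 0.12 at MII, 0.74 against 0.04 at RiboMinus GV and 1.38 against 0.25 at RiboMinus MII (1.40 with 3 genes at their lower bound and 1 left out). With library totals the GV3h split was 7 higher and 0 lower. Over all genes, library totals turned 667 higher and 753 lower calls at polyA GV into 1054 and 367, 2402 and 2447 at GV3h into 3533 and 1475, 2299 and 1345 at MII into 2787 and 1054, and 919 and 938 at RiboMinus MII into 1156 and 598.

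Slc39a1, the gene of the plasma membrane importer ZIP1, had the largest called difference at polyA GV, GV3h and RiboMinus MII, and Slc39a4 had it at polyA MII. Its female means were 9.68 and 33.4 CPM in GV cKO against 0.403 and 0.927 in controls (4.98 ± 0.88, edgeR adjusted p = 0.00545). At GV3h they were 21.1 to 30.9 against 0.436 to 0.618 CPM (5.5 ± 0.76, edgeR adjusted p = 0.000182), and at MII 0.239 to 2.15 against 0 to 0.475 (2.55 ± 0.78, edgeR adjusted p = 0.0333). At RiboMinus MII the cKO eggs held 497 reads and the controls 2, a ratio of pooled CPM of 95.3 (26.2 to 789).

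Slc30a7, the gene of the Golgi transporter ZnT7, was called higher in the cKO at polyA GV (2.21 ± 0.63), GV3h (2.16 ± 0.52), MII (2.07 ± 0.56) and RiboMinus MII (2.53 ± 0.63). Slc39a4, the gene of the importer ZIP4, was called at GV3h (2.51 ± 0.70) and MII (2.77 ± 0.69). Slc30a2 was called at GV (1.82 ± 0.42), and Slc30a6 at GV3h (1.94 ± 0.52). Slc30a5, the gene of ZnT5, was lower at GV3h (-0.49 ± 0.15) and higher at MII in polyA (0.64 ± 0.15) and RiboMinus (1.38 ± 0.33). Slc39a9 was higher at GV3h (0.58 ± 0.18) and RiboMinus MII (1.42 ± 0.34), and Slc39a7, the gene of the endoplasmic reticulum and Golgi transporter ZIP7, at RiboMinus MII (2.13 ± 0.47). The edgeR adjusted p of these ran from 0.00699 to 0.0476.

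**Figure D5:**
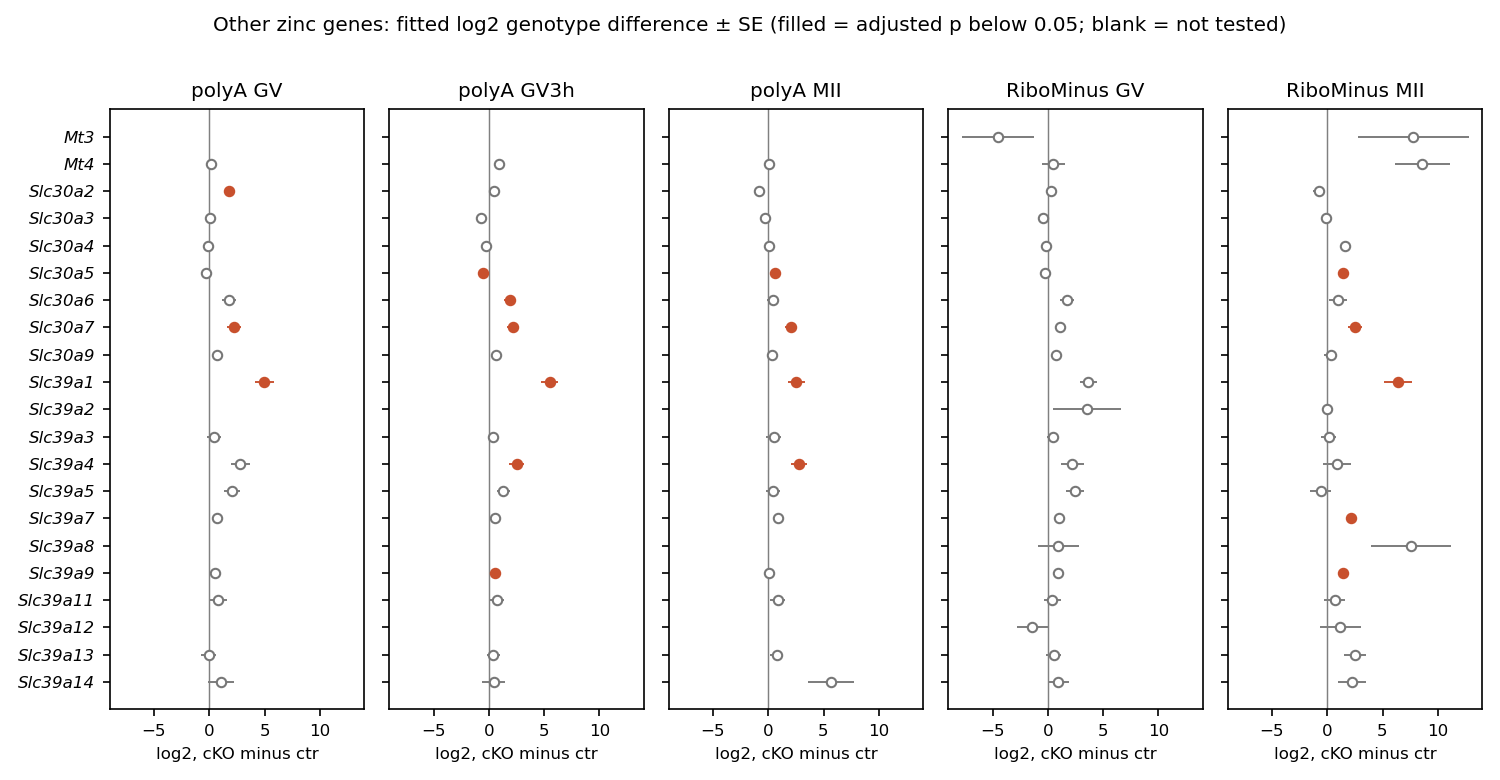
Fitted log2 difference, knockout minus control, with its SE for the other zinc genes in the 5 comparisons of genotype; filled points passed an adjusted p below 0.05, and a blank row was not tested. Slc39a1 lies at 2.55 to 6.42 in the 4 comparisons where it was called, and Slc30a7 at 2.07 to 2.53.

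From GV to MII in polyA controls 3 of the 17 were called higher and 5 lower, and in the cKO 2 higher and 7 lower. Over all genes the shares were 16.8% higher and 25.7% lower in controls and 18.1% and 26.6% in the cKO, so the control counts are near the background. The medians were -0.83 against -0.26 over all genes and -0.48 against -0.33. Slc30a5 rose in both genotypes (0.81 ± 0.17 in controls, 1.78 ± 0.18 in the cKO), as did Mt4 (1.2 ± 0.38 and 1.07 ± 0.38), and Slc39a9 rose in controls (0.72 ± 0.20). Slc39a3 fell in both (-4.44 ± 0.67 and -4.36 ± 0.64), with Slc39a7 (-2.09 ± 0.46 and -1.91 ± 0.44), Slc30a2 (-1.27 ± 0.38 and -3.88 ± 0.40) and Slc30a7 (-1.67 ± 0.60 and -1.81 ± 0.55). Slc39a14 fell in controls, from 30 reads to none, at least 10.9-fold lower than at GV. Slc39a1 (-3.84 ± 0.69), Slc39a5 (-3.03 ± 0.64) and Slc30a6 (-2.31 ± 0.56) fell in the cKO. With library totals the split was 0 higher and 6 lower in controls and 1 higher and 9 lower in the cKO, so no rise in controls was called under that scaling. Over all genes 3230 higher and 4952 lower became 1790 and 6594 in controls and 3487 and 5123 became 1876 and 7483 in the cKO. At GV3h none was called by edgeR, DESeq2 or another alternative in either genotype, with 1 in controls and 0 in the cKO at an unadjusted p under 0.05. At RiboMinus MII none was called by edgeR, with 6 in controls and 3 in the cKO at an unadjusted p under 0.05, and DESeq2 called 1 lower in controls. In the same controls, 9 of 18 were called lower with edgeR on only the groups compared and 4 of 18 with each oocyte as a replicate, so this count depends on the fit. Over all genes those fits called 2870 higher and 2862 lower of 20552, and 1766 and 1949 of 19110, with 1 female in the MII arm.

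Lists of other genes that metals, oxidants or hormones can move held calls in both directions. Of the 18 copper and iron genes, 17 were tested in polyA, with 1 called higher and none lower in the GV cKO, 4 and 2 after culture (GV3h), and 4 and 0 in MII eggs. The shares over all genes tested were 3.47% higher and 3.91% lower, 12.5% and 12.7%, and 11.9% and 6.99%, and the counts are to be read against these. Tfrc, the gene of the transferrin receptor that brings iron in, was higher by 3.10 ± 0.44 at GV, 3.80 ± 0.38 at GV3h and 3.33 ± 0.37 at MII, and by 3.35 ± 0.72 at RiboMinus MII (edgeR, adjusted p of 4.19e-05 to 0.0333). Ftl1, the gene of the ferritin light chain, was higher at GV3h (1.70 ± 0.27) and MII (1.84 ± 0.28). At RiboMinus MII 3 of 18 were higher and 1 lower (3.61% and 3.69% over all genes), and Slc40a1, the gene of the iron exporter ferroportin, held 1404 reads in the cKO and none in controls, at least 180-fold higher. Blood markers reached 14.6 CPM in 1 cKO egg and were at 0 in the controls of this comparison, in which Star and Cyp11a1 were also higher, and their part in the Slc40a1 and Hmox1 values was not tested.

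Of the 15 oxidative stress genes, 14 were tested in polyA, with 0 called higher and 2 lower in the GV cKO, 1 and 4 after culture, and 2 and 3 in MII eggs, against the same background shares (12.5% and 12.7% after culture). Nfe2l2, the gene of the regulator NRF2, was lower at GV3h (-1.79 ± 0.37) and MII (-1.46 ± 0.36), and Slc7a11, the gene of the cystine importer, was lower at GV (-1.01 ± 0.26) and GV3h (-1.15 ± 0.22). Nqo1, a textbook NRF2 target, went the other way, at 0.79 ± 0.21 and 0.87 ± 0.21 in GV3h oocytes and MII eggs. At RiboMinus MII Gclc was higher (2.48 ± 0.52) and Prdx1 lower (-1.86 ± 0.37). Hmox1, the gene of haem oxygenase, which zinc and oxidants can both induce, held 599 reads (4.58 CPM) in RiboMinus MII cKO eggs and 2 reads (0.0399 CPM) in controls (edgeR, adjusted p = 0.0301). Of the 8 glucocorticoid response genes, 7 were tested in polyA, with 0 higher and 1 lower in the GV cKO, 1 and 2 after culture, and 2 and 1 in MII eggs, against the same shares. Fkbp5, a sensitive target of the glucocorticoid receptor, was lower at GV (-1.31 ± 0.27) and GV3h (-1.54 ± 0.22). Sgk1, another target, was higher in GV3h oocytes (1.01 ± 0.30) and MII eggs (1.06 ± 0.30), as was Per1 in MII eggs (1.06 ± 0.20). Dusp1 was lower in GV3h oocytes (-1.49 ± 0.32), polyA MII eggs (-1.46 ± 0.31) and RiboMinus MII eggs (-1.86 ± 0.30).

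Genes next to the metallothioneins on chromosome 8 were checked for the same difference. Of 8 neighbours, from Nudt21 to Herpud1, 7 were tested in polyA, and none was called in the cKO against control at GV or MII by edgeR, while 2 were higher at GV3h: Herpud1, a gene of the endoplasmic reticulum stress response (253 reads against 1, a pooled ratio of 123, 21.8 to 4870), and Nudt21 (2.04 ± 0.51, edgeR adjusted p = 0.00845). At GV and MII 2 and 0 of the 7 had an unadjusted p under 0.05. Over all genes 12.5% were called higher at GV3h, 3.47% in the GV comparison and 11.9% in that of MII eggs. At RiboMinus GV none of the 8 was called by edgeR, with 2 at an unadjusted p under 0.05. Their median difference there was 0.22 (-0.05 with 1 gene at its bound and 1 left out), against 0.04 over all genes. At RiboMinus MII their median was 3.68 (1.40 with 4 genes at their bounds), against 0.25 over all genes and with 1 control female. In polyA Mt4, a metallothionein gene of the same cluster, differed by 0.19 ± 0.40 at GV, 0.94 ± 0.34 at GV3h and 0.06 ± 0.33 at MII (edgeR, adjusted p = 0.829, 0.0521 and 0.921). At RiboMinus MII the cKO eggs held 122 Mt4 reads (4 to 68 an egg) and the controls none, and this difference was not called (edgeR, adjusted p = 0.0691).

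The 5 genes whose levels followed Mt1 most closely over the 23 females, by Pearson's r of log2(CPM + 1) centred within library type among 13711 genes, were Gimap1 (0.939), Syt14 (0.938), Tet2 (0.937), D030056L22Rik (0.934) and Yy1 (0.932). For Mt2 they were Lbh (0.911), Tnfrsf9 (0.867), Cxxc5 (0.864), Plb1 (0.849) and Parvb (0.848), and for Slc30a1 Gm45464 (0.866), Pygo2 (0.802), Ppp1r15b (0.797), Pde12 (0.788) and Gm38431 (0.788). The females fall into genotype and stage groups, so these values describe a shared group pattern and have no test. Among the members, r with Mt1 was 0.439 for Mt2, 0.479 for Mtf1, 0.532 for Slc30a1, -0.555 for Slc39a6 and -0.341 for Slc39a10.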

How the data were processed

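The deposited files give counts of reads per gene for single oocytes, with Ensembl mouse identifiers. Per the submitters' processing notes, the tools included cutadapt 2.5, STAR 2.7.2a, HTSeq 0.9.1 and DESeq2 1.24.0 with build mm10; the annotation release, the strand setting and the treatment of reads with several positions are not given in the sources used here. Rows that name no gene held 8.426 to 16.98% of reads in polyA and 10.64 to 14.6% in RiboMinus libraries and were left out.

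From these deposited counts, oocytes were summed per female and fitted with edgeR 4.0.16 (filterByExpr, TMM, quasi-likelihood test) in R 4.3.3, 16 polyA females in 1 fit and 7 RiboMinus females in another. P-values were adjusted by Benjamini-Hochberg over 19242 and 25425 genes, with calls at 0.05. CPM per oocyte used TMM factors over oocytes. Intervals of pooled ratios are exact at 95% and the limit for a count of 0 is 3 counts. Whether oocytes of a female, or females of a group, shared a collection is not given, so p-values measure the spread between these females only. The members and lists were chosen with earlier results of these data known. The genes named are the 6 members, Exosc10, every called gene of the other zinc genes, at most 3 called genes with the largest change per other list and comparison, and the 5 genes most like Mt1, Mt2 and Slc30a1. Alternatives were each oocyte as a replicate, DESeq2 1.42.0, its size factors or library totals in edgeR, no filter, only the groups compared, limma 3.58.1 voom with female as a random effect, and each of 22 females left out; leaving V853 out of fits it only shared was added after seeing the data. The 22 libraries for ribosomal RNA were not used here.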

Additional observations from a re-analysis of the deposited data

Results flagged for a closer look

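Each of the 6 genes was checked in each group of 4 to 10 oocytes, 36 pairs of gene and group, so the same oocytes were checked repeatedly. In these, 6 values lay far from the rest of their group by Dixon's criterion. Chance meets it in about 1 pair in 20 where values vary. That rate does not hold for the 4 values whose group was otherwise at 0, since any single read then meets the criterion. For Mt2, 3 of these were single reads among control oocytes that otherwise had none: 0.162 CPM in a polyA GV oocyte of V856, 0.18 CPM in a GV3h oocyte of V951 and 0.16 CPM in an MII egg of V836. In RiboMinus GV libraries, a cKO oocyte of V1131 held 0.529 CPM of Mt2 (11 reads, the next oocyte 0.198 CPM), and a control oocyte of V1133 held 0.852 CPM (12 reads) where the other 7 had none. For Slc39a10, a RiboMinus GV control oocyte of V1132 held 977 CPM (13217 reads), and the next held 816 CPM.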

How the results depend on the processing

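No paired analysis was possible because genotype and stage do not vary within a female and the groups compared share no female or replicate number. Over the named alternatives, Mt1 remained higher in the cKO in all 5 comparisons. Its difference was 5.08 at polyA MII with voom, and at RiboMinus GV it was 8.52 with each oocyte as a replicate, 8.71 with library totals and 8.74 with voom. Leaving out 1 female gave 7.75 to 8.29 at polyA GV, 9.07 to 9.88 at GV3h, 1.77 to 9.46 at MII and 8.43 to 8.76 at RiboMinus GV. From GV to MII, Mt1 in polyA controls was called at 3.49 with each oocyte as a replicate and at 3.16 with DESeq2 size factors and with no filter, was 0.36 with voom and ran from -4.05 to 3.63 with 1 female left out. In the polyA cKO DESeq2 gave -2.63, not called, and leaving out 1 female gave -2.89 to -2.35; in the RiboMinus cKO voom called -0.85, and leaving out 1 female gave -1.53 to -0.27. Slc39a10 differed by genotype by -0.11 at polyA GV and -0.5 at GV3h with library totals, and by -0.62 to -0.08 at RiboMinus GV with 1 female left out; its RiboMinus control stage change of -0.41 was called with only the groups compared. The other zinc genes had 18 genotype calls, against 41 with each oocyte as a replicate, 30 with DESeq2, 14 with only the groups compared and 15 to 20 with 1 female left out. They had 17 stage calls, against 16 to 24 over the named alternatives (24 with each oocyte as a replicate and with only the groups compared) and 13 to 18 with 1 female left out.

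Stage changes that were not called in the main fit also changed sign. Mt2 from GV to MII in controls (-0.02) was 0.18 with DESeq2, 0.05 with its size factors, 0.02 with no filter and 0.07 with voom. This change, like that of Mt2 in controls to GV3h, compares 1 read with 1 read, so its sign carries no information. In the cKO Mt2 from GV to MII was 0.56 with voom. Library totals gave -0.2 and -0.25 for Mtf1 in controls and cKO, -0.4 for Slc30a1 and -0.38 for Slc39a6 in the cKO. Mtf1 in the cKO to GV3h was -0.02 with no filter, and Slc39a6 there 0.02 with each oocyte as a replicate. Slc39a6 in controls to MII (-0.01) was 0.08 with DESeq2 and with its size factors, 0.04 with no filter and 0.01 with only the groups compared. With 1 female left out, the ranges that crossed 0 were, to GV3h, -2.68 to 2.74 (Mt2, controls), -2.87 to 1.16 (Mt2, cKO), -0.08 to 0.09 (Mtf1, cKO), -0.3 to 0.12 (Slc30a1, cKO), -0.03 to 0.22 (Slc39a6, controls) and -0.23 to 0.14 (Slc39a6, cKO). To MII they were -2.67 to 2.62 (Mt2, controls), -1.04 to 2.98 (Mt2, cKO), -0.04 to 0.47 (Slc30a1, cKO), -0.09 to 0.11 (Slc39a6, controls) and -0.04 to 0.33 (Slc39a6, cKO). By genotype they were -0.51 to 6.28 for Mt2 at RiboMinus GV and -0.54 to 0.08 for Slc30a1 at polyA GV. Slc39a10 at polyA MII (-0.05) also changed sign without V853, as given above. The cause was not tested. The only RiboMinus MII control female could not be left out, and Mt2 and polyA Slc30a1 rest on few reads.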

Other observations

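PolyA and RiboMinus libraries came from different females and were set side by side without a test, as log2 of the ratio of their mean CPM over females. In the cKO, Mt1 stood 0.786 higher in polyA at GV (210 against 122 CPM) and 1.10 lower at MII (33.6 against 72.0 CPM, a log2 ratio of -1.1). Mt2 in the cKO had a log2 ratio of 2.89 at GV (1.13 against 0.152 CPM) and -2.96 at MII (1.04 against 8.08 CPM). The GV value rests on V888 (2.13 CPM); the other polyA GV female, V857, held 0.126 CPM, below the RiboMinus mean. Slc39a6 kept within -0.159 to 0.227 over both stages and genotypes.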
